A study of Mus musculus with 8 samples.

Results

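Fibulin 1 and 8 further genes of the basement membrane were examined in sorted Paneth cells of the mouse small intestine: the fibulins Fbln1 and Fbln2, the laminin chains Lama3, Lama5, Lamb1, Lamb2, Lamb3 and Lamc1, and the type IV collagen chain Col4a1. The 9 genes were taken by symbol from a deposited table of read counts for 53801 genes. They were chosen with the difference between the genotypes in these libraries already known, so that difference is described below and none of its p-values is independent support. All 9 had reads in at least some libraries, and 6 of them passed the filter on low counts.

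The study compared β-catGOF; Mll1+/- mice (controls 1 to 4 here) with β-catGOF; Mll1-/- mice (knockouts 1 to 4). Mll1, also called Kmt2a, is a histone H3 lysine 4 methyltransferase. Both genotypes carried a β-catenin allele that Cre recombination stabilises, which turns on Wnt signalling, and each had lost at least 1 copy of Mll1, so no library here stands for unmodified cells. Recombination was driven by Lgr5-EGFP-IRES-CreERT2, which is active in Lgr5-positive crypt stem cells. Tamoxifen (1 mg) had been given on 3 days, and viable EpCAM+ Cd24+ cells were sorted 10 d after induction. The part of the methods on sorting names Mll1 flox littermates without β-catGOF, whereas the sample descriptions and the results name β-catGOF for both groups.

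Totals on genes lay between 13037832 and 14380240 per library. Knockout 3 stood apart from the others: 19662 genes had a read there, against 22623 to 26074 elsewhere, and its scaling factor by the trimmed mean of M-values (TMM) was 0.632, against 0.821 to 1.34. Markers of Paneth cells (8 genes) summed to between 246000 and 762000 normalized CPM (counts scaled to a common library size), highest in knockout 3, and all 8 were detected, as were all 6 epithelial markers. Kmt2a itself had 268 to 719 counts in controls and 328 to 523 in knockouts (log2 fold change −0.06), and counts over the whole gene do not show the loss of single exons.

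The basement membrane is the thin sheet of matrix under an epithelium. Laminins are trimers of an α, a β and a γ chain that polymerise on the cell surface. The type IV collagen network, nidogens and the proteoglycan perlecan complete the sheet, and cells hold on to it through integrins and dystroglycan. Fibulins are secreted glycoproteins that bind laminins, nidogen, fibronectin and elastic fibres and bridge these networks. In the intestine the sheet is made jointly: much of the type IV collagen comes from mesenchymal cells under the crypts, and epithelial cells make several of the laminin chains.

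Fbln1 (ENSMUSG00000006369; chromosome 15, 85205949 to 85286535, plus strand, GRCm38) was higher in every Mll1-/- library than in any control. Its counts were 91, 91, 59 and 81 in controls 1 to 4, and 253, 304, 102 and 242 in knockouts 1 to 4. On the normalized CPM scale the controls lay at 5.72, 7.24, 5.31 and 6.41 and the knockouts at 15.1, 17.5, 12.0 and 14.7. The groups did not overlap, and the lowest knockout, knockout 3, was also the library with the smallest scaling factor. The means were 6.17 ± 0.846 in controls and 14.8 ± 2.25 normalized CPM in knockouts (SD, n = 4), a ratio of 2.40. The log2 fold change was 1.27 with a standard error of 0.21 (adjusted p = 0.0451, edgeR's quasi-likelihood test with Benjamini-Hochberg adjustment over 13439 genes).

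Fbln1 was thus past the limits used for calling a gene, an adjusted p of 0.05 and a log2 fold change of 0.5 in size, with little to spare: it ranked 25 by p among the 25 genes called. Those 25 genes, 21 higher and 4 lower in knockouts, are 0.186% of all genes tested. When 1 library at a time was left out, the fold change of Fbln1 stayed between 1.18 and 1.35 on the log2 scale, but the call was kept only without knockout 3 (adjusted p = 0.00595). In the other 7 fits the adjusted p of the same edgeR test reached up to 0.202, and all-gene counts of calls fell to between 10 and 21. The library numbers in the labels form 2 runs, with replicates 1 and 2 of both genotypes in the first and replicates 3 and 4 in the second. The mean log2 difference was 1.33 within the first run and 1.18 within the second. None of the exon bases of Fbln1 is shared with another gene of the table. In RNA of sorted pools, more of a transcript per cell and more cells that hold it cannot be told apart.

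Fbln2 (ENSMUSG00000064080; chromosome 6, 91212455 to 91272540, plus strand), the fibulin most similar to Fbln1 in its architecture, was a low gene. Its counts were 0, 12, 15 and 9 in controls and 4, 7, 4 and 16 in knockouts, too few to pass the filter, and it was not called in the edgeR fit without a filter (adjusted p = 0.874). The normalized CPM was 0.754 ± 0.568 in controls and 0.522 ± 0.317 in knockouts, and the ranges overlapped, from 0 to 1.35 and from 0.238 to 0.973. The 2 label runs differed in sign for this gene, with mean log2 differences of 0.94 and −0.49. Over summed counts the ratio of knockouts to controls after scaling was 0.761 for Fbln2, with a 95% exact interval of 0.455 to 1.27 for counting error alone, and 2.47 (2.18 to 2.82) for Fbln1.

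**Figure D1:**
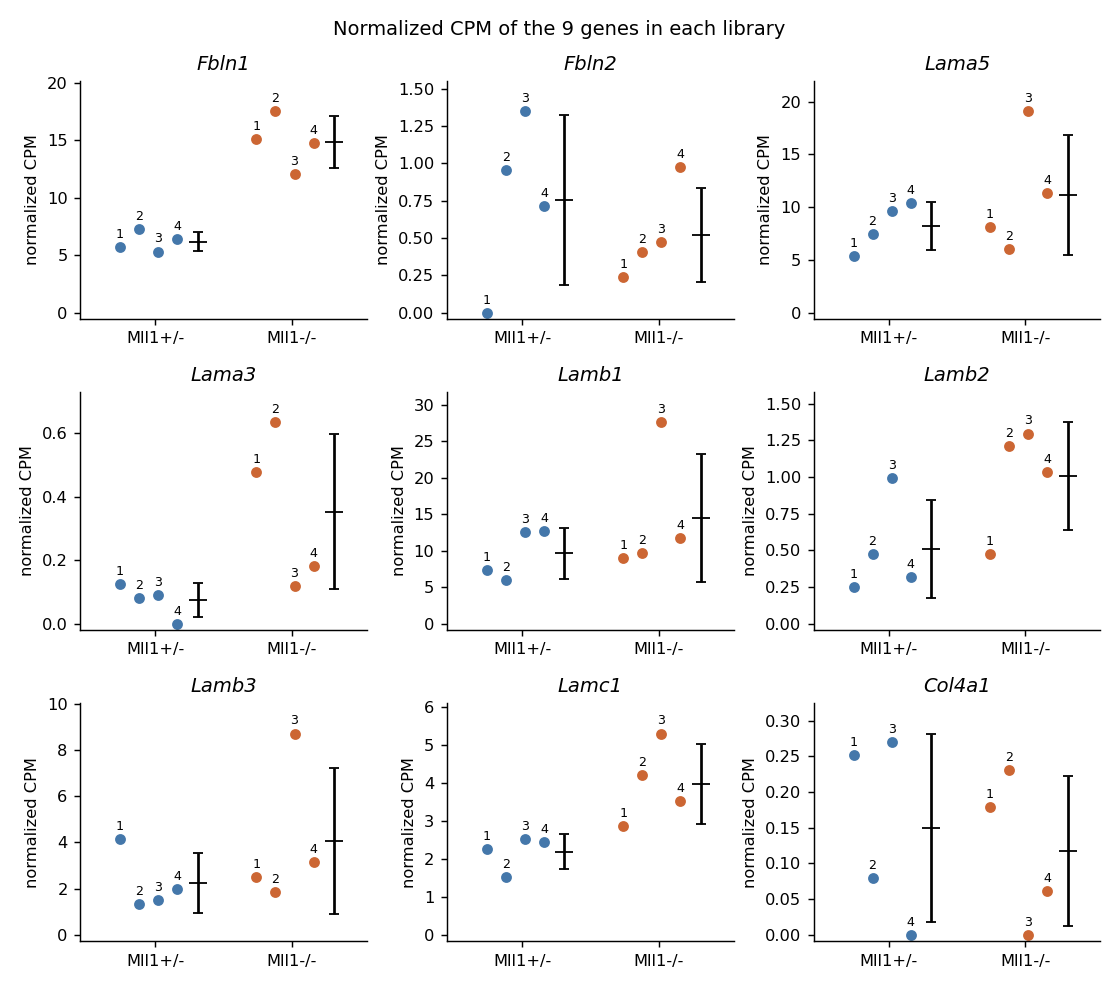
Normalized CPM (linear axis, its own range in each panel) of the 9 genes in the 4 Mll1+/- and 4 Mll1-/- libraries, with points numbered by replicate and black bars for the mean ± SD. The groups stay apart for Fbln1 (5.31 to 7.24 against 12.0 to 17.5) and Lamc1 (1.51 to 2.52 against 2.86 to 5.30), and knockout 3 is the highest library for Lamb1, Lama5, Lamb2, Lamb3 and Lamc1.

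The sequences before the start sites are given for the 2 fibulins and for Lamb1, the laminin chain of highest level, so that the gene that was called can be set beside its relative and beside the most abundant chain. They are the 250 bases upstream of the RefSeq start on GRCm38.p6, read 5′ to 3′ on the gene's strand, with GC boxes (GGGCGG on either strand) in capitals. RefSeq lists 2 starts for Fbln1, and the window of the second is shown (chr15:85205758-85206007, plus strand); Fbln2 lies at chr6:91212514-91212763 and Lamb1 at chr12:31265043-31265292, both on the plus strand.
Fbln1: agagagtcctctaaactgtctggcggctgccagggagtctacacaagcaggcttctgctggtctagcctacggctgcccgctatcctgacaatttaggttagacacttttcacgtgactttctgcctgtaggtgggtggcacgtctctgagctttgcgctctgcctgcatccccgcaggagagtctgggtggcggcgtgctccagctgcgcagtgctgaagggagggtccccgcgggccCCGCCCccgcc
Fbln2: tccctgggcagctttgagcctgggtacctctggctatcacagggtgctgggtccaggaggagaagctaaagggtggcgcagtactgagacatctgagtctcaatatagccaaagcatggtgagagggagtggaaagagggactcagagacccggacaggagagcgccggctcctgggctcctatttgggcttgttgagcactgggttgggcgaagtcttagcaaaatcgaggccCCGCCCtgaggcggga
Lamb1: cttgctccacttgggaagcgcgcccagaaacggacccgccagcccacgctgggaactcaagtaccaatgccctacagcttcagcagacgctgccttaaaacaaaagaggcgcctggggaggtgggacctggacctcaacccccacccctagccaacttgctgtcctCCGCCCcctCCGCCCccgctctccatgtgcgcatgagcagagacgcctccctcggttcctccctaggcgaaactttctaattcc

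The Fbln1 window shown holds 14 CpG dinucleotides, 62.4% G and C and 1 GC box, and the window of its other start holds 7 CpG and no GC box. Lamb1 has 14 CpG and 2 GC boxes, and Fbln2 has 8 CpG and 1 GC box. Windows of the same length had a median of 6 CpG over 32851 RefSeq starts, and 32.7% of them held a GC box. Sequences were found for 7 of the 9 genes, with 19 CpG and 4 GC boxes for Lama5, 31 CpG for Col4a1 and 2 or 3 for Lamb2 and both starts of Lamb3. Because the animals carry stabilised β-catenin, the windows were also searched on both strands for the TCF/LEF motifs CTTTGAT and CTTTGAA, present in 3.21% and 4.46% of all windows, for the GATA motif AGATAA (9.99%) and for the AP-1 motif TGAGTCA (4.46%). None of the windows of these genes holds any of the 4. The searches describe these letters in these windows and nothing beyond them.

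Among the laminin α chains, Lama5 (ENSMUSG00000015647; chromosome 2, 180176373 to 180225859, minus strand), the α5 chain of laminin-511 and laminin-521, was the chain with most reads. Its normalized CPM was 5.34, 7.48, 9.63 and 10.4 in controls and 8.10, 6.05, 19.1 and 11.4 in knockouts. The groups overlapped, and knockout 3 was the highest library. The log2 fold change was 0.43 with a standard error of 0.36 (adjusted p = 0.915, the same edgeR test), and without knockout 3 it was 0.05.

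Lama3 (ENSMUSG00000024421; on chromosome 18, plus strand), the α3 chain of the hemidesmosomal laminin-332, was close to the limit of detection. It had 2, 1, 1 and 0 counts in controls and 8, 11, 1 and 3 in knockouts. The sums of 4 and 23 counts give a ratio of 5.08 after scaling, with a 95% exact interval of 1.74 to 20.2 that covers counting error only. Most of the knockout reads came from knockouts 1 and 2, and knockouts 3 and 4 lay near the controls. The gene did not pass the filter, and in the edgeR fit without a filter it was not called (log2 fold change 2.16 with a standard error of 1.24, adjusted p = 0.625). A share of 1.83% of its exon bases is shared with Gm29200 on the opposite strand.

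Lamb1 (ENSMUSG00000002900; chromosome 12, 31265234 to 31329644, plus strand), the β1 chain common to several laminins, was measured at 7.36, 5.97, 12.5 and 12.7 normalized CPM in controls. In knockouts it was at 9.00, 9.68, 27.6 and 11.7. Apart from knockout 3, which had more than any other library, the knockouts lay inside the range of the controls of both label runs. In the first run both knockouts lay above both controls. In the second, knockout 3 lay above both controls and knockout 4 below them. The mean log2 differences within the 2 runs were 0.49 and 0.51. Lamb1 had a log2 fold change of 0.58 with a standard error of 0.39 (adjusted p = 0.882, the same edgeR test), and of 0.07 without knockout 3.

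Lamb3 (ENSMUSG00000026639; chromosome 1, 193207699 to 193343878, plus strand), the β3 chain of laminin-332, was also highest in knockout 3. It was at 4.15, 1.35, 1.53 and 1.98 normalized CPM in controls and at 2.50, 1.84, 8.72 and 3.16 in knockouts. The highest control and the highest knockout, control 1 and knockout 3, each stood well above the rest of their group. The log2 fold change was 0.81 with a standard error of 0.55 (adjusted p = 0.883, the same edgeR test), 0.13 without knockout 3 and 1.29 without control 1. Within the label runs the mean log2 differences were −0.15 and 1.57, of opposite sign.

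Lamb2 (ENSMUSG00000052911; chromosome 9, 108479736 to 108490530, plus strand), the β2 chain of laminin-521, had only 4 to 21 counts per library. It lay between 0.252 and 0.990 normalized CPM in controls and between 0.477 and 1.30 in knockouts. Knockout 1 lay among the controls and the other 3 knockouts above all of them. The log2 fold change was 0.98 with a standard error of 0.59 (adjusted p = 0.849, the same edgeR test), and it moved between 0.75 and 1.50 as single libraries were left out, the highest value coming without control 3.

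Lamc1 (ENSMUSG00000026478; chromosome 1, 153218922 to 153332786, minus strand) encodes the γ1 chain, which pairs with most α and β chains. Its counts were 36, 19, 28 and 31 in controls and 48, 73, 45 and 58 in knockouts. The normalized CPM was 2.26, 1.51, 2.52 and 2.45 in controls and 2.86, 4.20, 5.30 and 3.53 in knockouts, so that the groups did not overlap. Together with Fbln1 this makes 2 of the 6 tested genes with every knockout above every control, a separation seen in 2.59% of all tested genes. The means were 2.19 ± 0.463 and 3.97 ± 1.04 normalized CPM (SD, n = 4). The log2 fold change of Lamc1 was 0.85 with a standard error of 0.34, and it was not called (adjusted p = 0.658, the same edgeR test). It stayed between 0.69 and 0.99 as single libraries were left out, and was 0.89 and 0.79 within the 2 label runs.

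Col4a1 (ENSMUSG00000031502; chromosome 8, 11198423 to 11312826, minus strand), which encodes the α1 chain of the ubiquitous type IV collagen trimer, had 4, 1, 3 and 0 counts in controls and 3, 4, 0 and 1 in knockouts. These are 8 counts in each group, a ratio of 0.884 after scaling with an exact 95% interval of 0.289 to 2.70 for counting error. Differences inside that interval were not detectable at this depth, and the edgeR fit without a filter did not call the gene (adjusted p = 0.991). The gene shares 0.295% of its exon bases with Col4a2, its head-to-head neighbour on the other strand.

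In all, the 6 tested genes were each higher in the Mll1-/- mean, with a median log2 fold change of 0.83, and 1 of the 6 was called. Over all 13439 tested genes 50.9% were higher in knockouts and the median was 0.01. Of the 3 genes that did not pass the filter, Lama3 had a higher mean in knockouts (ratio of means 4.78), and Fbln2 (0.691) and Col4a1 (0.782) had lower ones. Since the 9 genes were selected with this contrast known, the direction of the 6 is a description. Lamb2 passed the filter mainly through knockouts, with 4, 6, 11 and 4 counts in controls and 8, 21, 11 and 17 in knockouts. Its place among the 6 is thus not independent of the contrast. Without knockout 3 the fold changes of Lama5, Lamb1 and Lamb3 fell to 0.05, 0.07 and 0.13 on the log2 scale, still above 0. Within the first label run, which does not hold knockout 3, the mean log2 differences of these genes were 0.14, 0.49 and −0.15. Fbln1, Lamc1 and Lamb2 kept values of 1.35, 0.69 and 0.85 without knockout 3.

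**Figure D2:**
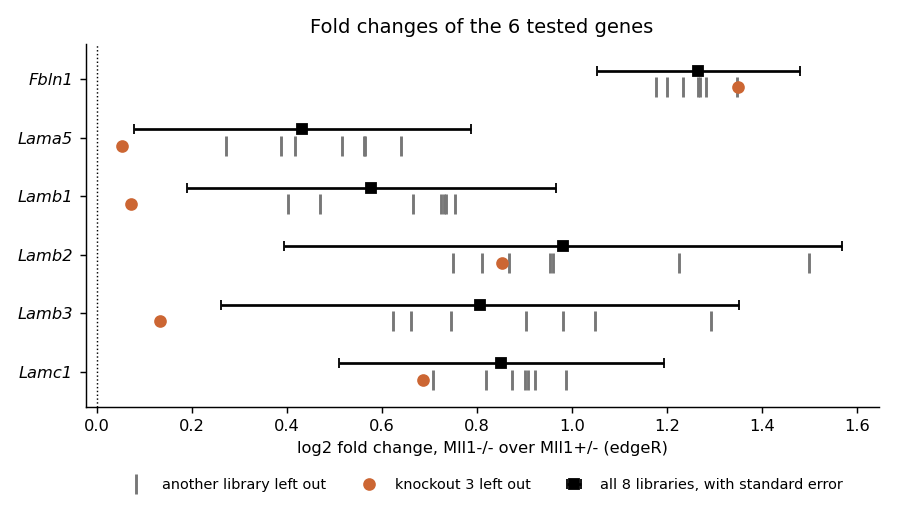
Log2 fold changes (x axis, Mll1-/- over Mll1+/-, edgeR) of the 6 tested genes, as squares with the standard error for all 8 libraries and as marks for each fit with 1 library left out, the filled circle being the fit without knockout 3. Fbln1 keeps between 1.18 and 1.35 in every fit, while Lama5, Lamb1 and Lamb3 come close to 0 without knockout 3.

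To compare the genes with each other, counts were divided by exon length. Fbln1 ranked first with 2.40 normalized CPM per kb on average over the 8 libraries, followed by Lamb1 at 1.22, Lama5 at 0.850, Lamb3 at 0.477 and Lamc1 at 0.372. Lamb2 at 0.124 and Fbln2 at 0.100 followed, with Col4a1 at 0.0179 and Lama3 at 0.0198 at the bottom, the order of this last pair being that of mean log2 levels. The order of the lower pairs turned round between the genotypes: Fbln2 was at 0.118 per kb and Lamb2 at 0.0837 in controls, and at 0.0819 and 0.165 in knockouts. Likewise Col4a1 was at 0.0201 and Lama3 at 0.00687 in controls, and at 0.0157 and 0.0328 in knockouts. In controls Fbln1 (1.41 ± 0.194 per kb) lay near Lamb1 (0.971 ± 0.350), and control 3 had slightly more Lamb1 than Fbln1. In knockouts Fbln1 was at 3.40 ± 0.515 and Lamb1 at 1.46 ± 0.887, and in knockout 3 they were almost level at 2.75 and 2.78.

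Each neighbour in that order was compared over the 8 libraries by an exact two-sided permutation test that flips the sign of the log2 difference, and none of the 8 pairs passed after Benjamini-Hochberg adjustment, though 5 had an unadjusted p under 0.05. The smallest p the test allows is 0.0078, reached by Lamc1 over Lamb2, which was higher in 8 of 8 libraries by 3.13-fold (adjusted exact p = 0.0625). Over 8 pairs, a single pair at this smallest p cannot pass by itself, whatever its values. That no pair passed is therefore no result about the order. Fbln1 over Lamb1 (1.98-fold, 6 of 8 libraries), Lamb1 over Lama5 (1.39-fold, 7 of 8) and Lama5 over Lamb3 (1.97-fold, 7 of 8) had the same adjusted exact p of 0.0625. The test pools both genotypes, so the lead of Fbln1 draws on the contrast it was chosen on. Fbln2 over Col4a1 had an adjusted exact p of 0.075. The other 3 pairs, Lamb3 and Lamc1, Lamb2 and Fbln2, and Col4a1 and Lama3, did not differ beyond their spread (adjusted exact p of 0.509, 0.333 and 0.805). The number of pairs that passed depended on the measure: it was 2 with the longest transcript as the length, 2 without any length, and 3 without control 1.

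**Figure D3:**
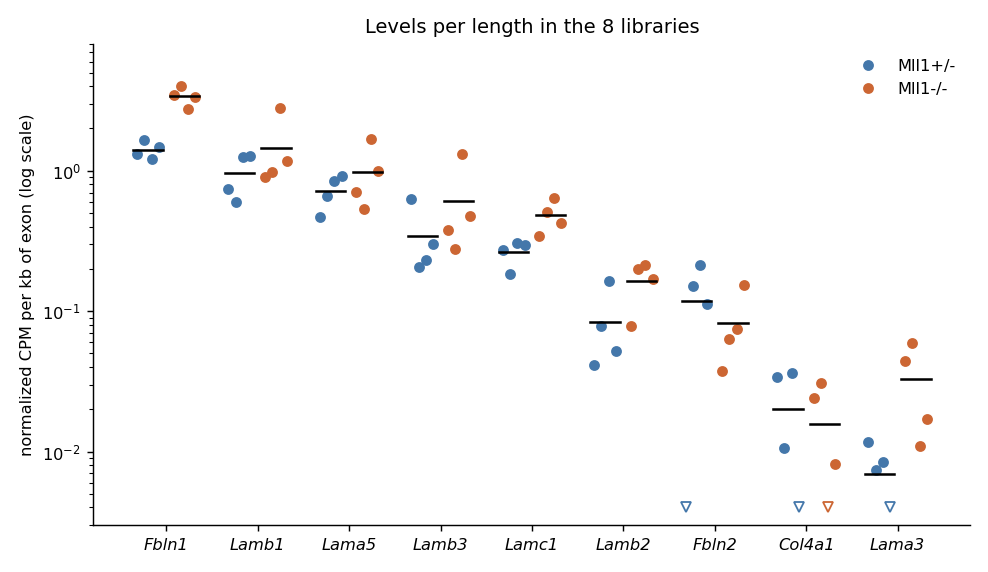
Normalized CPM per kb of exon (log axis) of the 9 genes in the order of their mean level, with a point for each library, black bars for group means and open triangles at the bottom for libraries with 0 counts. The levels run from 4.01 for Fbln1 in knockout 2 to 0 in single libraries of Fbln2, Col4a1 and Lama3.

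The spread between libraries was smallest for Fbln1. This is in part a result of its choice, because a small spread within groups helps a gene to be called. Lamb2, Fbln2, Lama3 and Col4a1 had no more than 21 counts in any library, so counting error adds to their spread. Its coefficient of variation was 13.7% in controls and 15.2% in knockouts. Lamc1 followed with 21.2% and 26.2%, and the other 7 genes lay between 27.6% and 90.0%. Lamb1 and Lama5, which had more reads than Fbln1 in controls, were at 36.0% and 27.6% there and at 60.8% and 51.3% in knockouts, where knockout 3 was the high library.

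Because a laminin needs a chain of each kind, the share of each gene among the α chains or among the β chains was computed per length in every library. Lama5 made up 86.5% to 96.5% of α chain messages in controls and 75.0% to 94.6% in knockouts. Lama4, the α4 chain best known from endothelial and muscle basement membranes, was at 1.87% to 6.73% in controls and 3.82% to 21.3% in knockouts. Its counts were 7, 2, 3 and 5 in controls and 36, 16, 47 and 8 in knockouts, and these groups did not overlap on the normalized CPM scale (0.159 to 0.440 against 0.487 to 5.54). Lama4 did not pass the filter. It was called only in the fit without a filter, at an adjusted p of 0.0197 in edgeR's test. It is named for its mean level among the remaining chains, which comes mostly from the knockouts (2.27 ± 2.29 against 0.316 ± 0.127 normalized CPM), so that choice is not independent of the contrast.

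The β chains were led by Lamb1, with 52.6% to 78.4% in controls and 64.5% to 67.1% in knockouts, ahead of Lamb3 and Lamb2. The β1 chain share of the knockouts was narrower in range than that of the controls, in which control 1 had the lowest value. In every library the leading α and β chain messages per length were thus Lama5 and Lamb1.

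**Figure D4:**
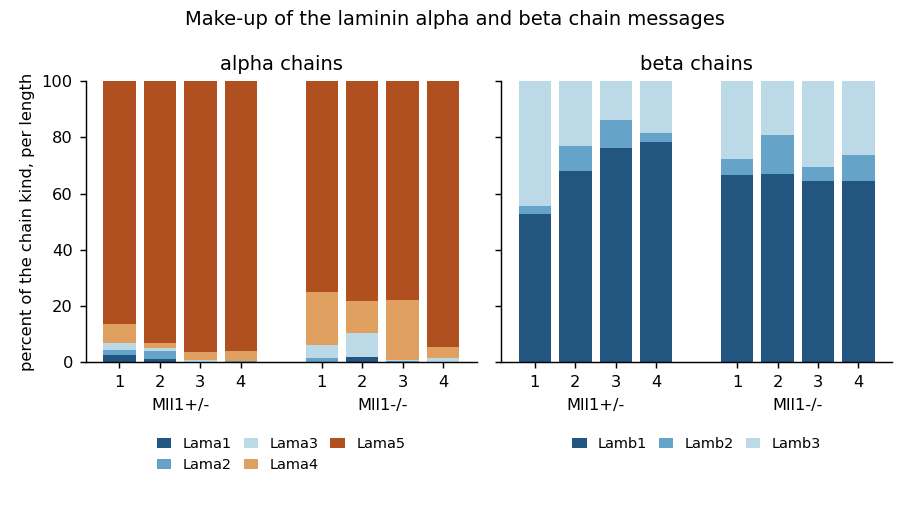
Stacked bars of the percent of α and β laminin chain messages per length (y axis) in each of the 4 Mll1+/- and 4 Mll1-/- libraries. Lama5 takes 75.0% to 96.5% of the α chains and Lamb1 52.6% to 78.4% of the β chains.

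The wider machinery of the basement membrane was covered by 9 lists with 90 further genes. Reads were found for 88 of them, 20 had at most 3 counts in every library, and 37 passed the filter. None of the 37 was called by edgeR, none by DESeq2's Wald test and 1 by limma-voom. At an unadjusted p under 0.05 there were 2 of 37 by edgeR (5.41%), against 6.88% of all tested genes. Of the 37, 19 genes were higher and 18 lower in knockouts with a median log2 fold change of 0.02. Both genes under that limit, Timp2 and Frem2, were higher in knockouts and are named after their values were seen. Timp2, an inhibitor of matrix metalloproteinases, went from 1.61 ± 0.309 to 4.05 ± 1.45 normalized CPM (log2 fold change 1.33, adjusted p = 0.387 in edgeR's test). Frem2, a component of the Fraser complex that anchors epithelium to mesenchyme, had 10, 21, 10 and 4 counts in controls and 24, 53, 20 and 93 in knockouts (log2 fold change 1.83, adjusted p = 0.468 in the same test). Timp2 was called by limma-voom and in the edgeR fit without knockout 3.

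Few of the other structural genes were expressed. Of 5 further type IV collagen chains none passed the filter, and the 2 highest, Col4a4 and Col4a3, had at most 18 and 12 counts. Of 6 nidogens and proteoglycans 3 passed, led by Agrn (agrin) at 10.3 ± 2.36 normalized CPM in controls and 9.24 ± 2.56 in knockouts and Col15a1 at 1.76 ± 1.30 and 1.37 ± 1.06. The perlecan gene Hspg2 had 0 to 26 counts, Nid2 had 0 to 15 and Nid1 at most 1; these 3 were picked after their values were seen. Of 6 other fibulins and hemicentins 1 passed, Efemp2 (fibulin 4), at 1.06 ± 0.375 and 0.606 ± 0.436. Hmcn1 (hemicentin 1) did not pass and had 6, 1, 1 and 3 counts in controls and 33, 18, 3 and 4 in knockouts, in overlapping groups.

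Receptors and associated proteins were called in neither direction. Of 13 receptors and hemidesmosome genes 11 passed the filter, 7 of them higher and 4 lower in knockouts. Itga6, the laminin-binding integrin α6, was at 53.1 ± 9.56 normalized CPM in controls and 60.5 ± 18.1 in knockouts, and Itgb1, the integrin β1 subunit, at 32.9 ± 5.43 and 40.6 ± 7.12. Of 15 basement membrane associated proteins 8 passed, 3 higher and 5 lower. Smoc2, a matricellular protein that also marks crypt stem cells, was at 54.6 ± 5.39 and 52.8 ± 3.98, and Tinagl1 at 9.54 ± 2.44 and 9.11 ± 3.60. Of 16 fibronectin, elastic fibre and fibulin partner genes only Mfap5 passed (0.679 ± 0.467 and 1.01 ± 0.641), and Vcan (versican) ranged from 0 to 37 counts.

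Of 15 matrix proteases and inhibitors 6 passed, 5 of them higher in knockouts. Mmp7 (matrilysin), which Paneth cells secrete to process defensins, was at 2630 ± 899 normalized CPM in controls and 2470 ± 1380 in knockouts, with 11.5% of its exon bases shared with AV064505 on the opposite strand. Mmp14, a membrane-bound collagenase, was at 9.35 ± 0.852 and 12.4 ± 2.29 (log2 fold change 0.41, adjusted p = 0.788, edgeR's test). Of 9 genes for collagen folding and export 6 passed, 2 higher and 4 lower, among them P4hb at 548 ± 82.8 and 565 ± 198 and Mia3, which loads bulky collagen into transport carriers, at 48.7 ± 9.19 and 47.2 ± 7.10.

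The genes whose profile over the 8 libraries lay nearest to that of Fbln1 were sought among 7061 tested genes with a mean of at least 5 normalized CPM, by the mean absolute difference of their centred log2 values. They were Anxa2 (0.161), Tcf4 (0.196), Bcap29 (0.217), Brd7 (0.241) and Abhd12 (0.244), against a median of 0.671 over the genes compared. Anxa2 (annexin A2), a calcium-dependent phospholipid-binding protein, was at 15.6 ± 0.647 normalized CPM in controls and 33.4 ± 8.20 in knockouts. Tcf4, an E protein transcription factor, was at 28.5 ± 2.09 and 57.8 ± 12.8. These 5 genes had log2 fold changes of 0.83 to 1.10, none was called, and their likeness follows in part from the genotype contrast that Fbln1 was chosen on. Lama5 lay at 0.643, close to that median, and Lamb1 at 0.746.

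Since Fbln1 and type IV collagen are abundant in mesenchymal cells, markers of cells outside the epithelium were summed in each library. Fibroblast markers (8 genes) summed to 0.633 to 1.76 normalized CPM in controls and 1.07 to 2.07 in knockouts, with no more than 10 counts for any of them in a library, 2 of the 8 at or below 3 counts in every library and none at 0 in all. Pericyte and smooth muscle markers (8 genes) summed to 0.630 to 1.43 in controls and to 0 to 0.775 in knockouts, with 5 of the 8 at or below 3 counts throughout. Endothelial markers (7 genes) lay at 4.43 to 7.29 and 4.78 to 6.83, and immune markers (8 genes) at 4.75 to 14.1 and 2.31 to 13.3. The summed levels of the groups overlapped for each of these lists. Those of pericytes and smooth muscle were lower in knockouts on average, but no marker of that list had more than 7 counts in a library. The part of these cells in the Fbln1 values was not tested.

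**Figure D5:**
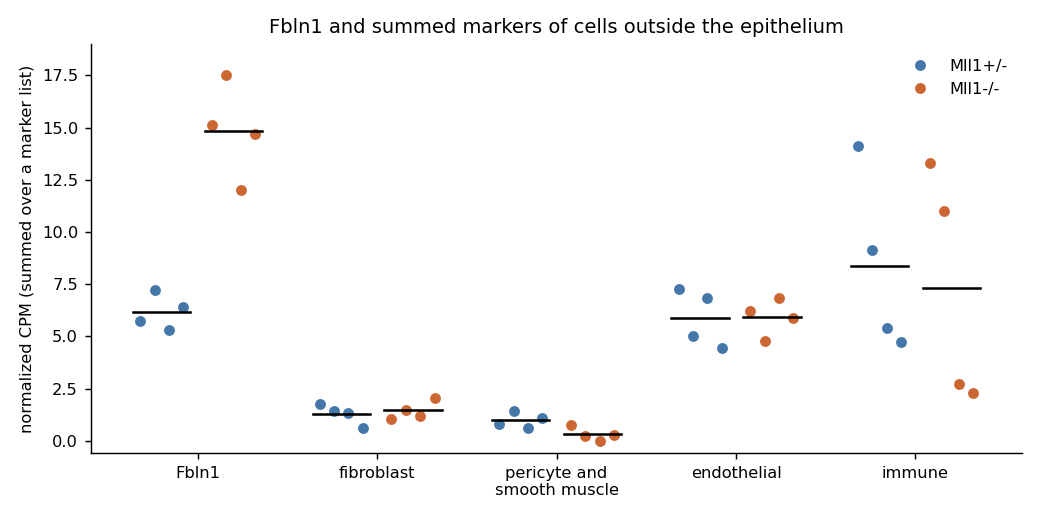
Normalized CPM (linear axis) of Fbln1 and of the summed markers of 4 kinds of cells outside the epithelium, with a point per library and black bars for group means. Fbln1 lies at 5.31 to 7.24 in Mll1+/- and 12.0 to 17.5 in Mll1-/- libraries. The fibroblast sums lie between 0.633 and 2.07 over both groups, and the part of these cells in the Fbln1 values was not tested.

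Markers of other epithelial cells were summed in the same way. Enteroendocrine markers summed to 197 to 789 normalized CPM in controls and 44.2 to 214 in knockouts, tuft cell markers to 148 to 399 and 75.7 to 262, stem cell markers to 705 to 1520 and 274 to 955, and enterocyte markers to 89.1 to 274 and 26.3 to 190. The upper end of each of these 4 ranges was lower in knockouts. Single markers did not all follow their sum: of the stem cell markers, picked after their values were seen, Olfm4 was at 876 ± 306 in controls and 406 ± 241 in knockouts, Lgr5 at 47.5 ± 3.73 and 48.9 ± 7.98, and Axin2 at 20.3 ± 7.43 and 37.9 ± 13.6, none of them called. The part of the mix of cells in the values of the 9 genes was not tested.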

How the data were processed

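The authors mapped the reads to mm10 by GSNAP and used featureCounts 1.6.3 with the Ensembl annotation to count those that mapped once; the submitters' processing notes also name bcl2fastq 2.19.1. The deposited values are raw counts per gene and library, not normalized, with a deposited exon length per gene. The strand setting of the counting is not given in the sources used here. Libraries were made by Smart-seq2, in which molecules are not tagged, so PCR copies count separately and intervals cover counting error only. The 92 spike-in rows were left out.

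Genes were matched to symbols by Ensembl identifier (53620 of 53801) with GENCODE annotation of GRCm38. The 9 genes and all gene lists were chosen with earlier results of these data known. Groups follow the genotype in the labels (4 libraries each; 1 animal number appears in the titles of both control 4 and knockout 4). Replicate numbers here are names, and p-values measure the spread between these libraries.

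Counts were tested in R 4.3.3 with edgeR 4.0.16 (TMM, filterByExpr at min.count 10 and min.total.count 15, robust quasi-likelihood fit), for 13439 genes. The common biological coefficient of variation was 0.376, and 3 counts correspond to 0.173 to 0.353 normalized CPM. Calls required both an adjusted p no higher than 0.05 and an absolute log2 fold change no lower than 0.5. DESeq2 1.42.0, limma 3.58.1, other scalings, filters, the label run as a block and leaving out each library were alternatives. Levels were compared per kb of exon after adding 0.5 to each count, with exact sign-flip permutation tests in scipy 1.17.1. Likeness to Fbln1 used tested genes with a mean of at least 5 normalized CPM. Genes named beside the 9 are the 2 of highest mean level in each list, genes called, the 5 nearest to Fbln1, and Kmt2a; others are said to be chosen after their values were seen. Some results of this rule are not reported here. The fits were checked on simulated data with planted changes.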

Additional observations from a re-analysis of the deposited data

Results flagged for a closer look

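In groups of 4 libraries, the gap between the highest or lowest library and its nearest neighbour was divided by the range of the group, and groups past Dixon's 95% critical value were set apart. Of 74 groups compared, 4 were set apart, and chance gives about 1 in 20, here about 4. Of the 4, 3 were in knockout 3.

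Lamb1 in knockout 3 was at 27.6 normalized CPM, against 9.00 to 11.7 in the other knockouts (gap over range 0.855). Tinagl1, a basement membrane associated protein, was at 14.5 in the same library against 6.97 to 7.67 (0.908). The summed Paneth cell markers were at 762000 there against 246000 to 334000 (0.830). Before scaling, Tinagl1 had 117, 127, 123 and 126 counts in knockouts 1 to 4, and Lamb1 had 151, 168, 234 and 192. In counts, knockout 3 was thus the highest for Lamb1 but not for Tinagl1, whose gap appears only after scaling. The scaling factor of knockout 3 was 0.632, the lowest of all. Its part in the values of Lamb1 and the Paneth cell markers was not tested. In controls, Mmp14 was at 10.6 in control 1 against 8.83 to 9.00 (0.906).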

How the results depend on the processing

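The direction of all 6 tested genes was kept in every alternative run except 1: Lama5 had a log2 fold change of −0.0453 with limma-voom and quality weights. Fbln1 lay between 1.18 and 1.35 throughout, and it remained called with DESeq2 size factors, without the 50 most abundant genes, without a filter, with the label run as a block, with limma-voom (adjusted p = 0.00731) and with DESeq2's Wald test (adjusted p = 1.31e-05). It was not called with upper-quartile factors (1.22, adjusted p = 0.0703) or with at least 10 counts in every library (1.26, adjusted p = 0.0584), where 0 of the 9 genes were called. Lamb2 has no value under the last of these. Leaving out 1 library at a time gave 0 to 1 of the 9 genes called and 10 to 152 over all genes, the highest count coming without knockout 3.

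Against 25 genes called in edgeR's main analysis, 290 were called without a filter, 13 with at least 10 counts in every library, 138 by DESeq2's Wald test, 95 by limma-voom and 38 at a false discovery rate of 10% with no limit on the fold change. The 9 wider lists had 0 genes called, but 1 without a filter (Lama4), 1 by limma-voom (Timp2), and 0 to 1 as single libraries were left out (Timp2 without knockout 3). The cause was not tested. Of the 8 neighbour pairs in the order of levels 0 passed, against 2 with the longest transcript as length, 2 without division by length, and 0 to 3 as single libraries were left out. In the main test a single pair could not pass by itself. No paired analysis was possible because the replicate numbers are names given here and the sample titles share an animal number for only 1 pair, control 4 and knockout 4. Depth limits Fbln2, Lama3 and Col4a1, which were tested only without a filter and not called there.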
